A study of Rattus norvegicus with 3 samples.

Results

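The collagen chain genes were examined by collagen type, cell lineage and library in injured rat spinal cord. Members were all gene symbols made of Col, a number, the letter a and a number, with at least 20 unique molecular identifiers (UMIs, each counting 1 captured RNA molecule) over the 3 libraries. This gave 27 of the 17328 genes in the files, and 45 collagen symbols had been looked for. All 27 collagen chain symbols in the files passed the threshold. The members nearest to it were Col17a1 with 27 UMIs and Col6a4 with 31 UMIs, and no member lay below it. The members comprised 10 fibrillar chains, 3 basement membrane chains, 1 short-chain collagen, 2 beaded filament chains, 4 fibril-associated chains, 2 multiplexins, 3 transmembrane collagens and 2 others. Col4a2, Col6a1 and Col6a3 were among the symbols looked for and not found, so sums by type cover the members only and not whole families.

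Nuclei came from the lesion epicenter of wild-type Sprague Dawley rats (strain given as SDrat), 17 weeks old, 49 days after spinal cord injury. One library held injured cord with no treatment (untreated), 1 held cord with an implanted scaffold (scaffold), and 1 held cord with a scaffold releasing hepatocyte growth factor (HGF scaffold), each implanted 7 days before collection. Each group was 1 library, and the number of animals behind a library was not given, so no difference could be tested across animals. The untreated group had no implantation, so the operation, the scaffold material and any difference between individual libraries cannot be told apart.

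Collagens are triple-helical proteins of the extracellular matrix. Fibrillar chains build the tensile fibers of connective tissue and scars, type IV chains build the network of basement membranes around vessels and glial borders, and the smaller families coat fibrils, link cells to matrix or form hexagonal lattices. After spinal cord injury, fibroblasts of meningeal and perivascular origin are known to deposit a collagen-rich scar at the lesion core, whereas neurons and glia make little fibrillar collagen.

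Promoter sequence from the RefSeq table (rat build GRCr8) was available for 22 of the 27 members. The 250 bases before the start are shown for 4 members whose levels differed widely between libraries (Col1a2, Col5a2, Col8a1 and Col11a1) and for Col4a1, whose levels did not. Capitals mark the letters CCAAT on either strand (ATTGG where the match is on the other strand), the sequence of the CCAAT box, and the sequences run 5′ to 3′ on the strand of the gene.
Col1a2: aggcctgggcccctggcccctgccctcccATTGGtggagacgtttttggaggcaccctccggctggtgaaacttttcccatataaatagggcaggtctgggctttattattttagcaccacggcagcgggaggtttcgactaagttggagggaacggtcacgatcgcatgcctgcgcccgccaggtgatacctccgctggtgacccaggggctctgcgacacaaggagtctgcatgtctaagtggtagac
Col5a2: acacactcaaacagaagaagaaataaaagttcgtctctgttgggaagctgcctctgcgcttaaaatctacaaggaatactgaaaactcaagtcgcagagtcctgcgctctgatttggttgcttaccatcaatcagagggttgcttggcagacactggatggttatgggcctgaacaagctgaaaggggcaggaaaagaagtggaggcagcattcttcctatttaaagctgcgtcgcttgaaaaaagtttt
Col8a1: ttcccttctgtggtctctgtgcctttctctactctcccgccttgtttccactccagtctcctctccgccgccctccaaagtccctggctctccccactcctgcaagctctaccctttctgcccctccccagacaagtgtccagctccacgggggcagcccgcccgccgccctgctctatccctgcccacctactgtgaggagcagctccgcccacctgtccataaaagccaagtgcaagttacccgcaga
Col11a1: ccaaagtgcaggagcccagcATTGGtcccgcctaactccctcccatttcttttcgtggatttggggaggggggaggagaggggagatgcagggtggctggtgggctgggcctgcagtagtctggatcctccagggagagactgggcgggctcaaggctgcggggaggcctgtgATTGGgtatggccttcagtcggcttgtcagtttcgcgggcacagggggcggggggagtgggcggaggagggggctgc
Col4a1: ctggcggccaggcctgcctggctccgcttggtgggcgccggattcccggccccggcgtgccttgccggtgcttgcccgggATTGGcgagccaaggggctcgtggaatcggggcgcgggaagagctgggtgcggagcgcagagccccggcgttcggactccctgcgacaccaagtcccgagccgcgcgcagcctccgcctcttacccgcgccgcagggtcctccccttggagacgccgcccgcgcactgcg
Col1a2 (chr4:33518307-33518556, plus strand) encodes the second chain of type I collagen, and Col5a2 (chr9:55090152-55090401, minus strand) a chain that starts new fibrils. Col8a1 (chr11:56246532-56246781, plus strand) is a short-chain collagen, Col11a1 (chr2:204508886-204509135, plus strand) a fibril-diameter regulator, and Col4a1 (chr16:84885347-84885596, plus strand) the common basement membrane chain. The letters CCAAT on either strand were found in 6 of the 22 member promoters, among them Col11a1 with 2 matches, Col1a2 and Col4a1, against 34.3% of all 27457 promoters in the table. TATAAA on either strand, the letters of a TATA box, was found in 3 of 22, among them Col1a2, against 13.1% of all promoters. GGGCGG on either strand, the letters of a GC box, was found in 12 of 22, with 4 matches in Col8a1 and 3 in Col11a1, against 32.4% of all promoters. The Col5a2 window held none of these letters. A CCAAT box match can share its last bases with an adjoining GC box match, and a match describes the letters only.

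There were 2252 untreated, 2168 scaffold and 906 HGF scaffold nuclei, with 5953189, 5791715 and 1450757 UMIs and medians of 1407.5, 1639 and 1047 UMIs per nucleus. Collagen chains accounted for 49779, 22045 and 9336 of these UMIs. Barcodes shared between libraries numbered 3 for untreated and scaffold, 1 for scaffold and HGF scaffold, and 0 for untreated and HGF scaffold. Nuclei fell into 19 clusters, formed without the collagen genes and called "-like" from lists of marker genes. Levels are given in CPM, the UMIs of a gene in each 1000000 UMIs of the nuclei summed, and ratios between libraries carry 95% intervals that cover counting error only, not the spread between animals. A gene was counted as higher or lower where it differed at least 2-fold with at least 20 UMIs over both libraries. The scaffold library enters both the scaffold to untreated and the HGF scaffold to scaffold ratio.

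Fibroblast-like nuclei held the largest share of the Col1a1 UMIs of any cluster in each library, and endothelial-like nuclei the highest mean level of Col4a1. Col18a1 had a mean of 582 CPM in endothelial-like nuclei. In a mural-like cluster marked by Notch3, Myh11 and Rgs5 it was 332, 517 and 1154 CPM in untreated, scaffold and HGF scaffold. The last value came from 14 UMIs in 9 nuclei. This cluster was mixed: in the finer clustering described further on, 61 of its 96 nuclei formed an unnamed subcluster led by Tenm2. The other 35 formed a subcluster led by Notch3, which made up 25%, 51.6% and 55.6% of the cluster in the same order. The part of this mixture in the Col18a1 levels was not tested. Per UMI of the cluster, the type I chains Col1a1 and Col1a2 had their highest mean level in a myeloid-like cluster marked by Lyz2, described further on. The fibroblast-like cluster (298 untreated, 140 scaffold and 67 HGF scaffold nuclei) carried the matrix markers Postn, Lum, Bgn, Mfap4 and Dcn. Of all Col1a1 UMIs it held 48.9% in untreated, 22% in scaffold and 35.2% in HGF scaffold nuclei. Endothelial-like nuclei held 39.0%, 27.2% and 43.3% of the Col4a1 UMIs and 38.7%, 24.2% and 43.6% of the Col18a1 UMIs. Col1a1 was also read in neural nuclei. At least 1 Col1a1 UMI was found in 96.6%, 91.4% and 89.6% of fibroblast-like nuclei, at median depths of 1448, 1445.5 and 1202 UMIs. It was also found in 43.8%, 43.9% and 31.0% of oligodendrocyte-like nuclei, myelinating glia not known to make type I collagen, at median depths of 2596, 2330.5 and 1096 UMIs. With every nucleus thinned to 500 UMIs, the shares were 77.2%, 62.9% and 73.1% in fibroblast-like and 15.9%, 11.7% and 20.4% in oligodendrocyte-like nuclei. The Col1a1 level of oligodendrocyte-like nuclei, 307, 339 and 514 CPM, is therefore given as a low background beside the levels of other lineages. Other neural clusters read higher in untreated and scaffold. Col1a1 was 1240 and 853 CPM there in astrocyte-like nuclei and 493 and 470 CPM in nuclei like oligodendrocyte precursors. In neuron-like nuclei it was 1057 and 392 CPM, with 867 of the 1466 untreated UMIs in 1 nucleus.

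**Figure D1:**
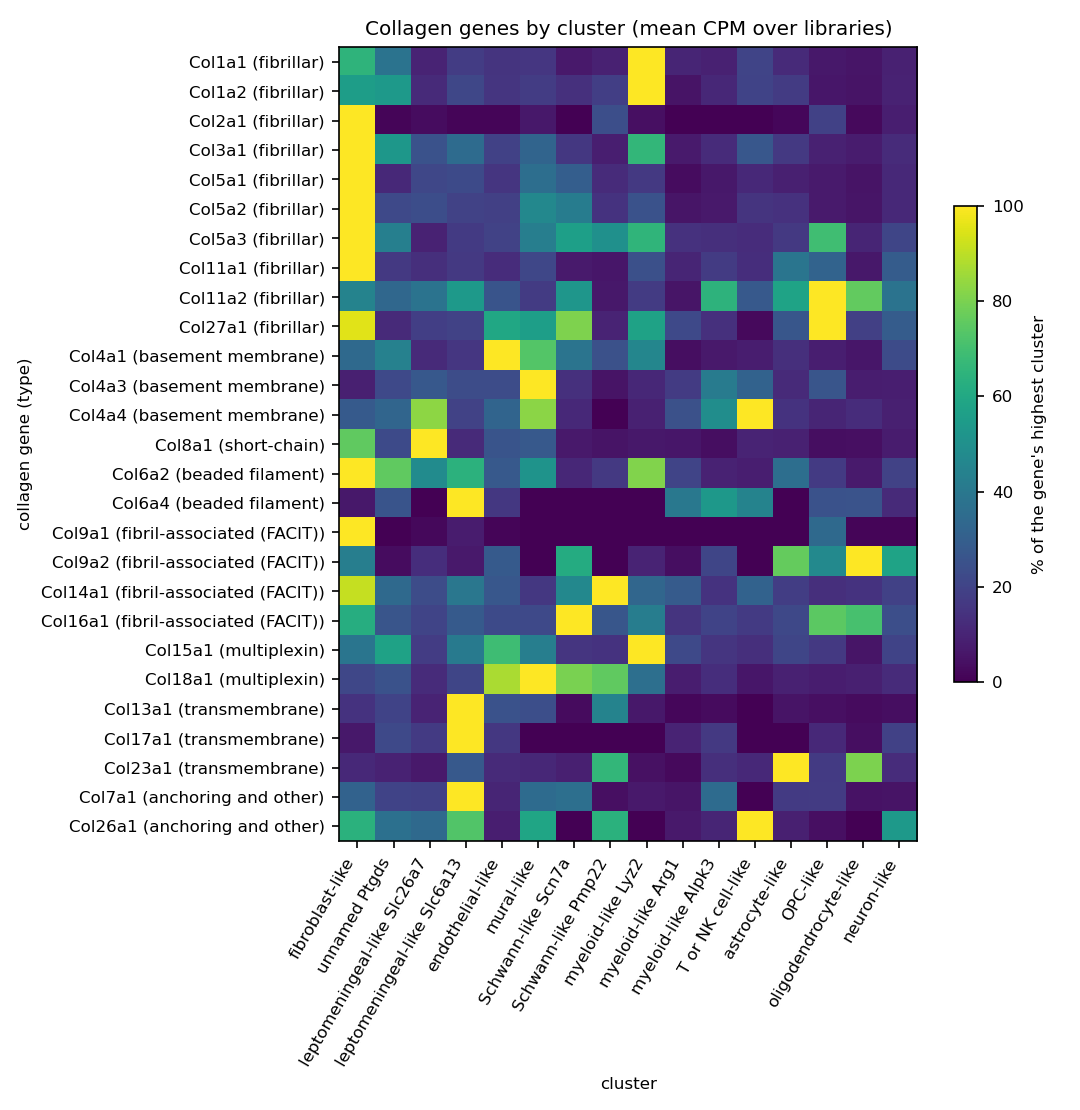
Heat map of the 27 collagen chains (vertical axis, grouped by collagen type) over 16 clusters (horizontal axis). Color gives the mean CPM over the libraries as a percentage of the gene's own highest cluster, and Col3a1, Col5a1, Col5a2, Col5a3 and Col11a1 peak in the fibroblast-like cluster, Col1a1 and Col1a2 in the myeloid-like Lyz2 cluster and Col4a1 in the endothelial-like cluster.

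Summed over all 27 chains, collagen RNA was lower in the scaffold library than in either other library. Over all nuclei, the collagen sum was 8352 CPM in untreated, 3808 CPM in scaffold and 6436 CPM in HGF scaffold. The scaffold to untreated ratio was 0.456 (0.449 to 0.463), and the HGF scaffold to scaffold ratio was 1.69 (1.65 to 1.73). In fibroblast-like nuclei the sum was 23324, 11673 and 21793 CPM in the same order, with ratios of 0.500 (0.484 to 0.518) and 1.87 (1.78 to 1.95). The HGF scaffold to untreated ratio in that class was 0.934 (0.901 to 0.969). In endothelial-like nuclei the sum was 7339, 4075 and 7128 CPM, with ratios of 0.555 (0.524 to 0.588) and 1.75 (1.62 to 1.88). In all 16 clusters plotted, the scaffold library read below the untreated library. In oligodendrocyte-like nuclei the sum was 2396, 2073 and 2623 CPM, a scaffold to untreated ratio of 0.865, and over the neural classes together it was 3993, 2641 and 2659 CPM, a ratio of 0.661. The Col1a1 level of oligodendrocyte-like nuclei was not lower in scaffold, and 462 and 191 CPM of their untreated and scaffold sums were Col23a1. With the collagen sum of oligodendrocyte-like nuclei subtracted, an alternative chosen after seeing the data, the scaffold to untreated ratio was 0.459 in fibroblast-like and 0.405 in endothelial-like nuclei. One untreated nucleus in the neuron-like cluster, with 52118 UMIs, alone held 2194 of the 6479 collagen UMIs of that cluster in its library. The neuron-like sum was 4674, 2522 and 2508 CPM.

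**Figure D2:**
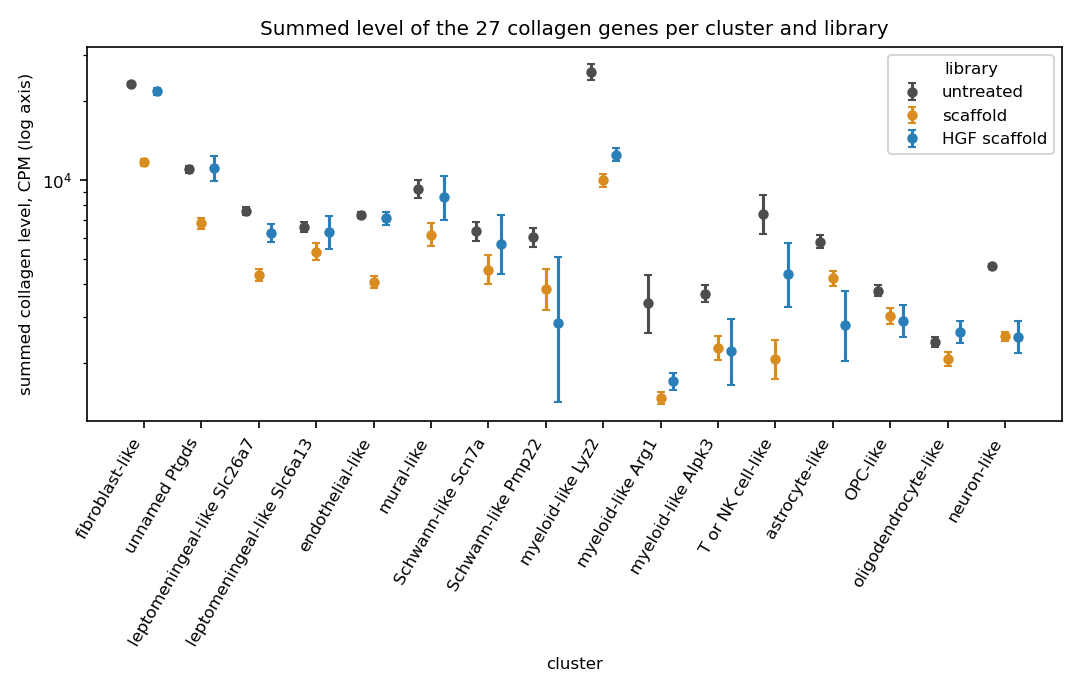
Summed CPM of the 27 collagen chains on a log axis (vertical) for each of 16 clusters (horizontal), with 1 point per library and exact 95% Poisson intervals that cover counting error only. The scaffold point lies below the untreated point in every cluster shown.

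Within fibroblast-like nuclei, fibrillar, short-chain and beaded filament collagens were lower in the scaffold library, while the basement membrane sum was level. The fibrillar chains summed to 18758, 9576 and 18170 CPM in untreated, scaffold and HGF scaffold, ratios of 0.511 for scaffold to untreated and 1.90 for HGF scaffold to scaffold. Short-chain Col8a1 stood at 2450, 647 and 1676 CPM, the 2 beaded filament chains at 535, 284 and 554 CPM, and the fibril-associated chains at 780, 435 and 649 CPM. The basement membrane chains summed to 399, 400 and 372 CPM, ratios of 1.0 and 0.929. Of 23 members with enough UMIs in the scaffold to untreated comparison, 0 were higher and 9 were lower, where 7.37% of all genes compared in these nuclei were higher and 8.3% lower. The median ratio of the members was 0.541, against 1.02 over all genes. Between scaffold and HGF scaffold, 4 of 16 members were higher (Col5a1, Col5a2, Col8a1 and Col11a1) and 0 lower, beside 4.01% and 6.9% of all genes. Their median ratio was 1.79 against 0.970 over all genes.

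The chains of types I and III, which form the bulk fibers of scars, had similar ratios in these nuclei. Col1a1, the main chain of type I, was read at 5354 CPM in untreated, 2896 CPM in scaffold and 5179 CPM in HGF scaffold. Its scaffold to untreated ratio was 0.541 (0.505 to 0.579) and its HGF scaffold to scaffold ratio 1.79 (1.63 to 1.96). Col1a2, which pairs with it in the type I trimer, stood at 2310, 1015 and 1764 CPM, ratios of 0.439 and 1.74. Col3a1, the single chain of type III, stood at 4956, 2621 and 4688 CPM, ratios of 0.529 and 1.79. The counts of this class rested on few nuclei in the smaller libraries: the 3 nuclei richest in Col1a1 held 8.48% of its UMIs in untreated, 24.4% in scaffold and 31.0% in HGF scaffold. Per nucleus, the median share of UMIs that were collagen was 2.53%, 0.994% and 2.13%.

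The minor fibrillar chains, which seed fibrils and set their diameter, did not all follow types I and III. Col5a1 stood at 652, 484 and 1058 CPM and Col5a2 at 3254, 1560 and 3528 CPM in untreated, scaffold and HGF scaffold, with HGF scaffold to scaffold ratios of 2.19 and 2.26. The third type V chain went the other way between untreated and scaffold. Col5a3 was 454, 554 and 888 CPM, a scaffold to untreated ratio of 1.22 (1.02 to 1.45). This direction turned within the Mmp13 subcluster described further on, where the ratio was 0.438 (0.347 to 0.554), and in the C1qtnf3 subcluster it was 1.13 (0.722 to 1.69). Col11a1, a type XI chain that also joins type V, was 1185, 267 and 888 CPM. Its scaffold to untreated ratio was 0.225 (0.180 to 0.279), the lowest of the fibrillar members not concentrated in a few nuclei, and its HGF scaffold to scaffold ratio was 3.33 (2.54 to 4.38). Col27a1, a fibrillar chain of cartilage and other tissues, was 229, 165 and 158 CPM, ratios of 0.723 and 0.953. Col11a2, the second type XI chain, was 127, 11.6 and 18.9 CPM.

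The other families in fibroblast-like nuclei ranged from Col8a1, with a wide difference between libraries, to Col4a1, with almost none. Col8a1, the short-chain collagen of vessel walls and basement membranes, had a scaffold to untreated ratio of 0.264 (0.229 to 0.303) and an HGF scaffold to scaffold ratio of 2.59 (2.16 to 3.11). Col6a2, a chain of the beaded filaments around cells, stood at 533, 284 and 554 CPM. Col14a1, a fibril-associated chain, stood at 348, 130 and 233 CPM. Col16a1, another fibril-associated chain, read 292, 296 and 416 CPM, level between untreated and scaffold. Col4a1 read 358, 377 and 359 CPM, with ratios of 1.05 and 0.953. The multiplexins, basement membrane collagens with large carbohydrate chains, gave different orders. Col15a1 read 103, 89.9 and 132 CPM, and Col18a1, the source of endostatin, read 194, 142 and 88.2 CPM. The remaining 11 members, Col2a1, Col4a3, Col4a4, Col6a4, Col7a1, Col9a1, Col9a2, Col13a1, Col17a1, Col23a1 and Col26a1, were at or below 63.0 CPM in every library of this class, except the cartilage chains Col2a1 and Col9a1 in untreated.

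**Figure D3:**
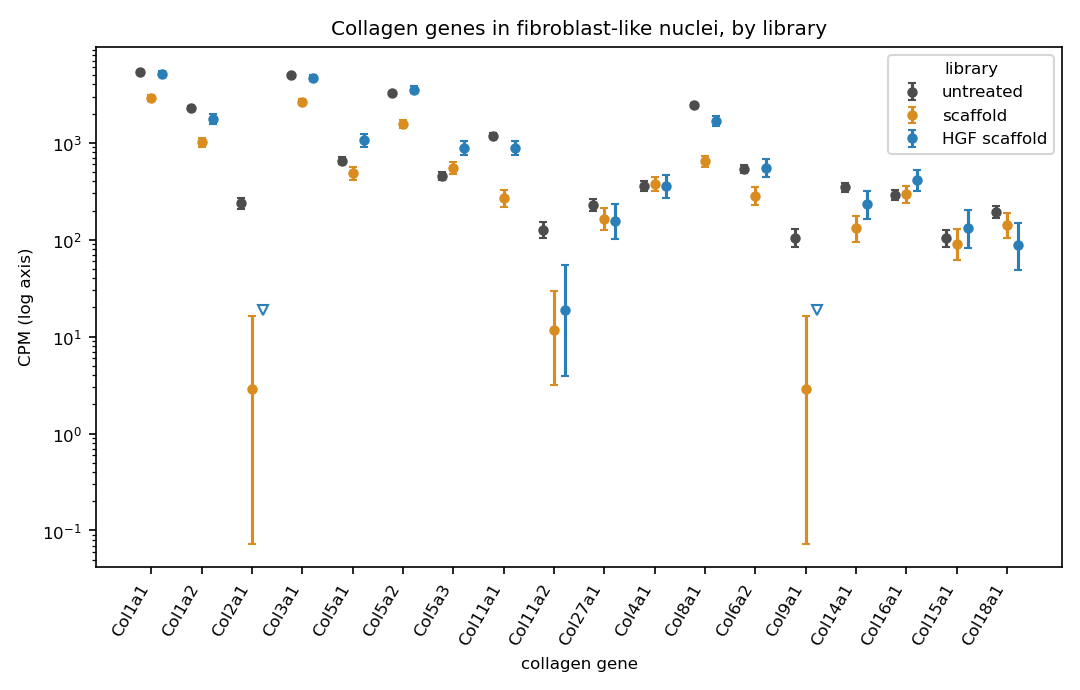
CPM of the collagen chains with the most UMIs in fibroblast-like nuclei (log axis), 1 point per library, with exact 95% Poisson intervals that cover counting error only. Open triangles mark 0 UMIs and are drawn at the floor of 3 counts, and the scaffold points of Col1a1, Col3a1, Col5a2, Col8a1 and Col11a1 lie below both other libraries.

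Most Col2a1 and Col9a1 RNA came from a handful of untreated nuclei. Col2a1, the main fibrillar chain of cartilage, had 218 UMIs in untreated, 1 in scaffold and 0 in HGF scaffold fibroblast-like nuclei, and 94% of the untreated UMIs lay in 3 nuclei. Col9a1, which coats type II fibrils, had 96, 1 and 0 UMIs. Over the whole untreated library, 5 nuclei with at least 5 Col2a1 UMIs held 227 of its 258 Col2a1 UMIs and 94 of 106 Col9a1 UMIs. They held 30 of 90 Col9a2 and 83 of 418 Col11a2 UMIs of that library, so most RNA of these chains lay elsewhere. Of the cartilage matrix genes Acan and Comp they held 48 of 257 and 72 of 248 UMIs. Of Sox9, a cartilage regulator, they held 15 of 130 UMIs, all in 2 of the 5 nuclei. Neither implanted library held a nucleus with as many Col2a1 UMIs. Of the 9 members counted as lower in the scaffold library, Col2a1, Col9a1, Col9a2 and Col11a2 had most of their untreated UMIs of this class in 3 nuclei. Without the nuclei with at least 5 Col2a1 UMIs, the ratio of Col9a2 was 1.01 from 2 and 5 UMIs and that of Col11a2 was 0.297 (0.0766 to 0.833). The collagen sum had a ratio of 0.510 without them and Col11a1 a ratio of 0.273.

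The fibroblast-like class was a mixture whose makeup differed between libraries. A finer clustering, chosen after these values had been seen, split off a subcluster led by C1qtnf3, Tnn and Aspn (325 nuclei) and one led by Mmp13, Postn and Efna5 (137 nuclei) from the 505 nuclei of the class. The C1qtnf3 subcluster made up 84.6% of the class in untreated, 34.3% in scaffold and 37.3% in HGF scaffold, from 252, 48 and 25 nuclei. The Mmp13 subcluster made up 9.40%, 49.3% and 59.7%, from 28, 69 and 40 nuclei. In the C1qtnf3 subcluster the collagen sum was 26246, 23388 and 21864 CPM, a scaffold to untreated ratio of 0.891 (0.846 to 0.938) and an HGF scaffold to scaffold ratio of 0.935 (0.865 to 1.01). In the Mmp13 subcluster it was 17667, 8612 and 24079 CPM, ratios of 0.487 (0.456 to 0.521) and 2.80 (2.63 to 2.98). Scaffold was lowest in the Mmp13 subcluster, and HGF scaffold was lowest in the C1qtnf3 subcluster. Of the 325 nuclei of the C1qtnf3 subcluster, 252 came from the untreated library, so subcluster and library partly coincide. With both subclusters weighted equally, the class ratios were 0.729 and 1.44. Over 19 other ways of forming or summing the class, the scaffold to untreated ratio ran from 0.388 to 0.766. The HGF scaffold to scaffold ratio ran from 0.779 to 2.49 and was above 1 in 18 of them.

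Col1a1 and Col3a1 had scaffold lowest in the Mmp13 subcluster and not in the C1qtnf3 subcluster. In the Mmp13 subcluster, Col1a1 was 2901, 1549 and 5090 CPM in untreated, scaffold and HGF scaffold, Col3a1 was 4702, 2162 and 5886 CPM, and Col5a2 was 3681, 1321 and 4197 CPM. From scaffold to HGF scaffold, 11 of 15 members were higher there and 0 lower, beside 5.45% and 10.1% of all genes. From untreated to scaffold, 0 of 15 were higher and 6 lower (Col1a2, Col3a1, Col5a2, Col5a3, Col18a1 and Col23a1), beside 13.3% and 5.81%. In the C1qtnf3 subcluster, Col1a1 was 6237, 7642 and 6461 CPM, highest in the scaffold library, and Col3a1 was 5444, 4767 and 3388 CPM, lowest in HGF scaffold. There, 0 of 21 members were higher and 5 lower from untreated to scaffold, beside 8.34% and 16.8% of all genes, and 4 of the 5 were the cartilage chains Col2a1, Col9a1, Col9a2 and Col11a2. The fifth was Col11a1, at 1397, 492 and 748 CPM. From scaffold to HGF scaffold, 0 of 12 were higher and 1 was lower (Col5a1), beside 6.47% and 8.03%. Col8a1 was lowest in scaffold in both subclusters, at 2989, 1892 and 3624 CPM in the C1qtnf3 subcluster and 360, 185 and 643 CPM in the Mmp13 subcluster. The 3 richest nuclei held 44.8% and 65.9% of the Col1a1 UMIs of the C1qtnf3 subcluster in scaffold and HGF scaffold, and 17.2% and 37.3% of those of the Mmp13 subcluster.

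Markers of myeloid cells were higher in the fibroblast-like class of both implanted libraries. The 27 myeloid markers summed to 2325, 6312 and 6111 CPM in untreated, scaffold and HGF scaffold, with 27, 26 and 25 detected, P2ry12 at 0 in both implanted libraries and Cd163 at 0 in HGF scaffold. Their sums were 1952, 5691 and 4983 CPM in the C1qtnf3 subcluster and 4032, 6473 and 5635 CPM in the Mmp13 subcluster. Their part in the collagen ratios was not tested. The 21 fibroblast markers in the files were all detected in each library and summed to 9051, 8449 and 6956 CPM.

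**Figure D4:**
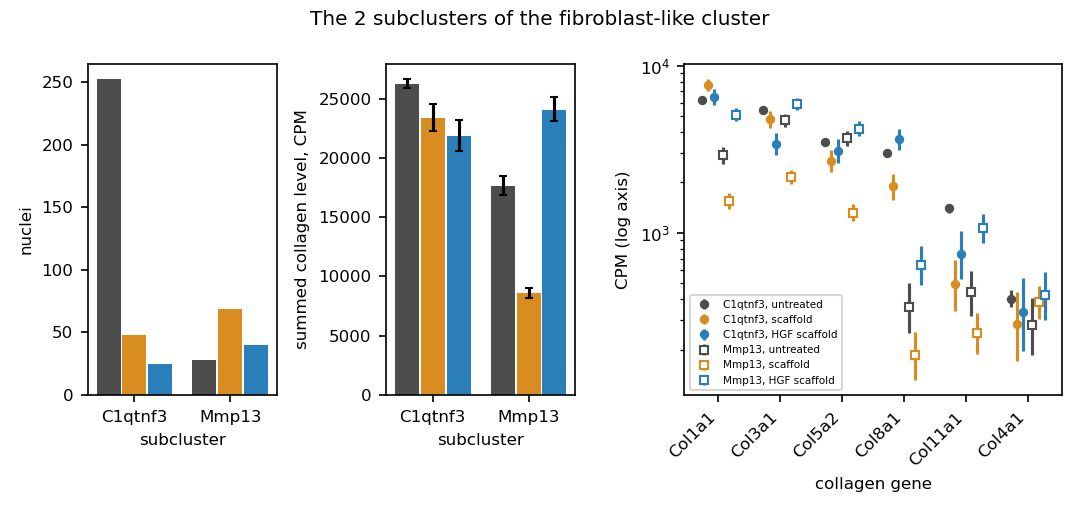
The C1qtnf3 and Mmp13 subclusters of fibroblast-like nuclei, by library. Left, bars of the number of nuclei. Middle, bars of the summed collagen level in CPM on a linear axis. Right, CPM on a log axis of Col1a1, Col3a1, Col5a2, Col8a1, Col11a1 and Col4a1, 1 point per library. Middle and right carry exact 95% Poisson intervals that cover counting error only. In the Mmp13 subcluster the collagen sum of the scaffold library lies lowest, and in the C1qtnf3 subcluster the sums of the libraries lie close together.

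Endothelial-like nuclei had level Col4a1 between libraries, and carried lower fibrillar and short-chain RNA in the scaffold library. The class held 189, 130 and 66 nuclei. Col4a1 was 1048, 1033 and 1104 CPM in untreated, scaffold and HGF scaffold, with ratios of 0.986 and 1.07, against 53.8, 73.2 and 67.6 CPM in oligodendrocyte-like nuclei. Col4a2 forms the type IV trimer with Col4a1, and its RefSeq start lies 77 bases away on the other strand. It was not among the 27 collagen symbols in the files. Col18a1 was 695, 488 and 563 CPM and Col15a1 was 202, 157 and 219 CPM. Col8a1, by contrast, was 954, 220 and 465 CPM, a scaffold to untreated ratio of 0.231 and an HGF scaffold to scaffold ratio of 2.11. The fibrillar chains summed to 3861, 1733 and 4313 CPM, ratios of 0.449 and 2.49. Among them, Col1a1 was 1077, 493 and 1530 CPM, Col3a1 was 982, 401 and 995 CPM, Col5a1 was 144, 42.0 and 153 CPM and Col11a1 was 142, 31.5 and 126 CPM. Lower Col8a1 in scaffold was not confined to endothelial-like nuclei. Its scaffold to untreated ratio over all nuclei, without those with at least 5 Col2a1 UMIs, was 0.240. It was 0.315 in astrocyte-like nuclei and 0.209 in a myeloid-like cluster marked by Alpk3. In nuclei like oligodendrocyte precursors it was 0.792 and in Schwann-like nuclei 0.865, with intervals that span 1.

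Of 19 members compared in endothelial-like nuclei, 1 was higher (Col11a2) and 8 were lower from untreated to scaffold, beside 7.26% and 5.38% of all genes. The count of 1 higher became 0 under most alternatives run, so the Col11a2 difference depended on how the nuclei were chosen and counted. The 8 were Col1a1, Col3a1, Col5a1, Col5a2, Col6a2, Col8a1, Col11a1 and Col14a1. In HGF scaffold against scaffold, 8 of 19 were higher and 3 lower, beside 3.87% and 6.73%. Those lower were Col11a2 at 55.1 and 10.9 CPM, the type IV chain Col4a3 at 60.3 and 10.9 CPM and the transmembrane collagen Col23a1 at 78.7 and 10.9 CPM, each from 2 UMIs in HGF scaffold. Fibroblast markers were read in these nuclei too: all 21 were detected in each library, and they summed to 2581, 2195 and 3706 CPM. Their order, with scaffold lowest and HGF scaffold highest, was that of the fibrillar sum. Their part in the fibrillar and short-chain ratios of endothelial-like nuclei was not tested.

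**Figure D5:**
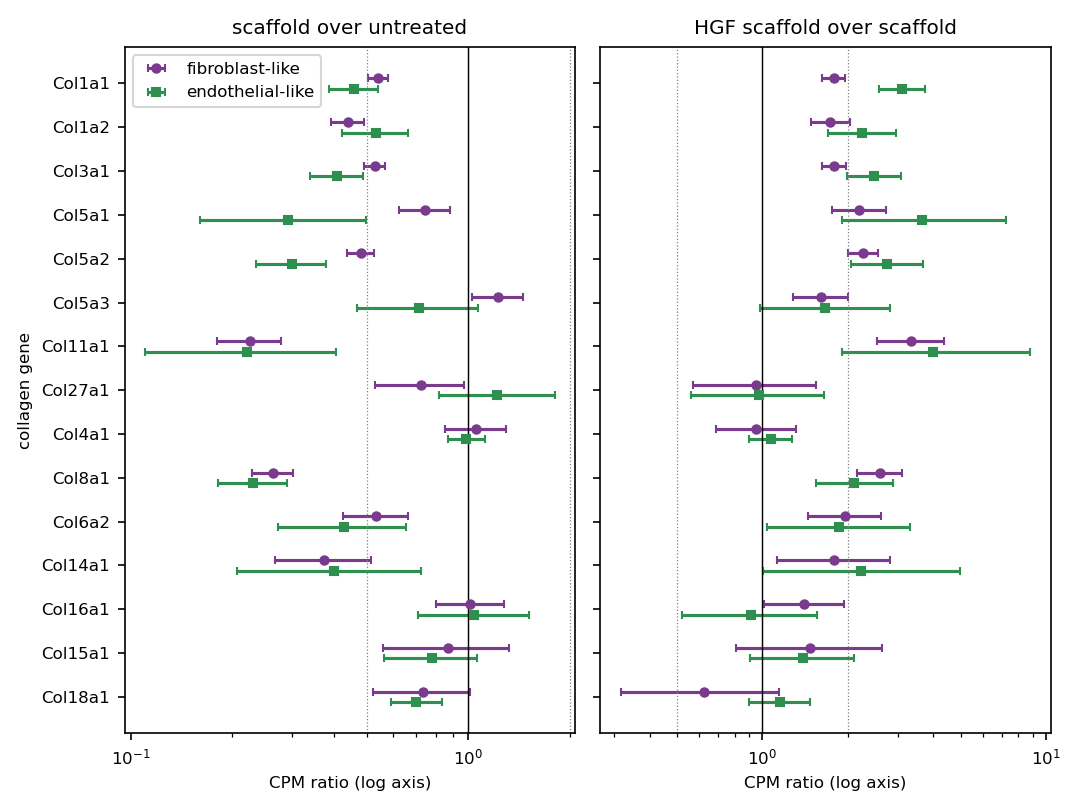
Ratios between libraries (log axis) for a chosen set of collagen chains in fibroblast-like and endothelial-like nuclei, with exact 95% intervals that cover counting error only. A chain is drawn where it had at least 20 UMIs over both libraries, and Col11a2, Col4a3 and Col23a1 are among those left out of the set. Dotted lines mark ratios of 0.5 and 2, and Col4a1 lies near 1 in both classes while Col8a1 and Col11a1 lie below 0.5 for scaffold to untreated and above 2 for HGF scaffold to scaffold.

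Both meningeal clusters had lower Col8a1 in scaffold than in untreated, and HGF scaffold could be placed between them only in the Slc26a7 cluster. Leptomeningeal-like nuclei came in a cluster marked by Slc26a7 and one marked by Slc6a13, and the Slc26a7 cluster had the highest mean Col8a1 level of any cluster. Its Col8a1 was 3015, 952 and 2337 CPM in untreated, scaffold and HGF scaffold, ratios of 0.316 (0.279 to 0.357) and 2.45 (2.06 to 2.91). In the Slc6a13 cluster Col8a1 was lower throughout, at 501, 147 and 102 CPM. The HGF scaffold value there came from 3 UMIs, too few to set it apart from scaffold. The collagen sum was 7584, 4336 and 6256 CPM in the Slc26a7 cluster and 6578, 5319 and 6294 CPM in the Slc6a13 cluster. Col13a1, a transmembrane collagen, had its highest mean level in the Slc6a13 cluster, at 213, 254 and 135 CPM, and so did Col7a1, the anchoring fibril collagen, at 95, 81.8 and 102 CPM. The HGF scaffold values of both rested on few UMIs, 3 for Col7a1. A cluster marked by Ptgds, Igf2 and Islr had as many fibroblast as leptomeningeal markers and stayed unnamed, with a collagen sum of 10972, 6812 and 11053 CPM.

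Glial nuclei carried Col16a1, Col5a3, Col27a1 and Col23a1, of which Col23a1 differed most between libraries. Col16a1 was 335, 287 and 521 CPM in oligodendrocyte-like nuclei. It stood at 385, 351 and 467 CPM in nuclei like oligodendrocyte precursors and at 542, 500 and 570 CPM in a Schwann-like cluster marked by Scn7a. Col5a3 in precursor-like nuclei was 454, 426 and 437 CPM, a scaffold to untreated ratio of 0.940. Col27a1 in the same nuclei was 241, 126 and 211 CPM. Col23a1 differed more widely. It was 462, 191 and 324 CPM in oligodendrocyte-like nuclei, a scaffold to untreated ratio of 0.413 (0.327 to 0.517), and 174 and 31.6 CPM in untreated and scaffold precursor-like nuclei, with 0 UMIs in HGF scaffold. In astrocyte-like nuclei it was 313, 187 and 716 CPM, the last from 11 UMIs in 20 nuclei.

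Type I collagen RNA was highest, per UMI, in the myeloid-like cluster marked by Lyz2, the lysozyme gene of macrophages and neutrophils. It held 27, 71 and 73 nuclei, and Col1a1 there was 11161, 3945 and 5526 CPM in untreated, scaffold and HGF scaffold. These levels lay above those of fibroblast-like nuclei in each library, though only narrowly in HGF scaffold. The 3 nuclei richest in Col1a1 held 47.1%, 34.3% and 25.9% of the cluster's Col1a1 UMIs in the same order. The makeup of this RNA was unlike that of fibroblast-like nuclei. For each Col1a1 UMI, the Lyz2 cluster had 0.111, 0.0812 and 0.0974 Col5a2 UMIs, against 0.608, 0.539 and 0.681 in fibroblast-like nuclei. For Col8a1 the figures were 0.0186, 0.0348 and 0.0122 against 0.458, 0.223 and 0.324. The ratio of Col1a1 to Col1a2 UMIs, by contrast, was 2.15, 1.91 and 2.90 against 2.32, 2.85 and 2.94. These are ratios of UMIs, not corrected for length. The cluster also carried fibroblast markers, with 17, 19 and 20 of 21 detected and sums of 11472, 5125 and 5708 CPM, and myeloid markers with sums of 20111, 15477 and 20978 CPM. Twist2 was at 0 in untreated and scaffold, and Twist1 was at 0 in both implanted libraries, beside Prrx1, Islr and Cthrc1 in untreated. At least 1 Lyz2 UMI was found in 14 of the 27 untreated, 63 of the 71 scaffold and 65 of the 73 HGF scaffold nuclei, and Lum or Dcn in 21, 35 and 37. In the 5, 32 and 29 nuclei with Lyz2 and without Lum or Dcn, Col1a1 was 1495, 1650 and 2041 CPM, and the part of the nuclei with both marker sets in the levels of the cluster was not tested.

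The neutrophil-like cluster held a sizeable part of the collagen UMIs of the scaffold library. It had 0 nuclei in untreated, 123 in scaffold and 15 in HGF scaffold, and its scaffold nuclei were deep, with a median of 5487 UMIs. They held 15.6% of the Col1a1 UMIs and 17.2% of the Col8a1 UMIs of that library. The collagen sum was 3997 CPM in scaffold and 4447 CPM in HGF scaffold. The scaffold value was near the 3808 CPM of all scaffold nuclei together, so the cluster's part of the collagen UMIs was near its part of all UMIs. In scaffold its Col3a1 to Col1a1 UMI ratio was 0.870 and its Col8a1 to Col1a1 ratio 0.312, against 0.905 and 0.223 in fibroblast-like nuclei. The largest myeloid-like cluster, marked by Arg1, held 17, 370 and 299 nuclei, with a collagen sum of 3381, 1467 and 1698 CPM. The makeup of the nuclei thus differed between libraries, and it enters every ratio taken over all nuclei.

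Over all nuclei, 2 of 27 members were higher (Col6a4 and Col17a1) and 11 lower from untreated to scaffold, beside 7.12% and 3.96% of all genes. From scaffold to HGF scaffold, 5 of 24 were higher (Col1a1, Col5a1, Col5a2, Col8a1 and Col11a1) and 1 lower (Col4a3), beside 2.15% and 5.51%. The median ratios of the members were 0.646 and 1.34, against 1.03 and 1.02 over all genes.

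The enzymes that modify and assemble collagen were compared in the same fibroblast-like nuclei. Of 33 processing genes listed, 28 could be compared from untreated to scaffold, with 0 higher and 10 lower, beside 7.37% and 8.3% of all genes, and a median ratio of 0.663, against 1.02 over all genes. Among the lower were the prolyl 3-hydroxylases P3h2 (93.6 and 5.80 CPM) and P3h3 (193 and 92.8 CPM), and Plod2, the lysyl hydroxylase of collagen telopeptides (729 and 331 CPM). The chaperones Fkbp10 (72.9 and 26.1 CPM) and Ppib (78.4 and 37.7 CPM), the propeptide-cleavage enhancer Pcolce (101 and 43.5 CPM) and the protease Tll1 (62.0 and 20.3 CPM) were lower as well. In HGF scaffold against scaffold, 19 could be compared, with 1 higher and 2 lower, shares near the 4.01% and 6.9% of all genes. The gene that was higher was Plod2, at 331 and 762 CPM, and one that was lower was Adamts3, a procollagen N-proteinase, at 522 and 195 CPM. Within the subclusters, the HGF scaffold to scaffold ratio of Plod2 was 0.974 in the C1qtnf3 subcluster and 3.67 in the Mmp13 subcluster. Of the basement membrane partners, 3 of 5 listed could be compared and 0 were higher or lower, from untreated to scaffold. Of the collagen receptors, 7 of 12 could be compared and 2 were lower, where 8.3% of all genes were, Itga10 (66.4 and 8.70 CPM) and Itga11, the latter among the genes leading the cluster. Of 10 genes of collagen breakdown, 9 could be compared, with 1 higher (Mmp13, also a leading gene) and 1 lower (Mmp16, 279 and 122 CPM), counts too small to set apart from the 7.37% and 8.3% of all genes. In the HGF scaffold to scaffold comparison, 0 of 2 basement membrane partners, 0 of 6 receptors and 0 of 8 breakdown genes were higher or lower.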

How the data were processed

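The collagen members, the marker lists and the comparisons were chosen with earlier results of these data known. A kit served to isolate the nuclei, which were then captured with 10x Genomics 3′ beads, per the labels' protocols. The authors deposited unnormalized counts of UMIs per gene and nucleus. The submitters' processing notes name Cell Ranger, version 6.0.1. The genome build and annotation are not given in the sources used here. Reads of 3′ ends cannot be split by isoform, and near-identical chains are not resolved further than that counting.

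Nuclei with at least 200 genes and at most 5% mitochondrial UMIs were kept, 5320 of 5326 (4 exceeded the mitochondrial limit, all untreated). Scrublet called 2 doublets (0.0376%), too few for the caller to have worked. These were removed, and removing nuclei with at least 3 markers of each of at least 5 lineages was tried as an alternative. Counts were scaled to 10000 per nucleus, and 2000 variable genes without the collagens, 30 principal components and 15 neighbors entered Leiden clustering at resolution 1, with no integration of libraries. Clusters were named where at least 3 of 205 markers found in the files, from 18 lists, stood among the leading 100 genes. The subclusters came from resolution 2 and were chosen after seeing the data.

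UMIs were then summed by class and library. Levels carry exact Poisson intervals, ratios exact conditional binomial ones and shares exact binomial ones (95%), and a level of 0 was set against a floor of 3 counts. Single members are given in full from 200 UMIs in the fibrillar, basement membrane and short-chain types and from 300 in the others, or where at least 2-fold different with 50 UMIs in fibroblast-like or endothelial-like nuclei. Classes with at least 50 nuclei in both libraries were compared (25 for subclusters). Of 60 other collagen pathway genes, 52 were in the files. The ratio code was tested on simulated data. RefSeq promoters (GRCr8) matched 22 members, and Col14a1, Col1a1, Col2a1, Col3a1 and Col6a2 were unmatched. Python 3.11.15, scanpy 1.11.5, anndata 0.12.19, numpy 2.4.6, scipy 1.17.1, pandas 2.3.3, scikit-learn 1.9.0, leidenalg 0.10.2 and matplotlib 3.10.9 were used.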

Additional observations from a re-analysis of the deposited data

Results flagged for a closer look

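Some chains had ratios on opposite sides of 1 in a pair of classes, with counting intervals that exclude 1 in both. The differences between classes were not tested across animals. Col11a2 had a scaffold to untreated ratio of 2.12 (1.06 to 4.27) in endothelial-like nuclei and 0.0911 in fibroblast-like nuclei, where 70.1% of the untreated UMIs lay in 3 nuclei. In endothelial-like nuclei no chain was counted as higher under most alternatives run, so this call depended on the processing. Col9a2 had a ratio of 3.42 (1.61 to 7.88) in neuron-like nuclei and 0.161 in fibroblast-like nuclei, for the same comparison. Without the nuclei with at least 5 Col2a1 UMIs, the fibroblast-like ratio of Col9a2 was 1.01 (0.0962 to 6.17), so its direction rested on those nuclei. Col23a1 had a ratio of 3.12 (1.67 to 5.93) in the leptomeningeal-like cluster marked by Slc6a13, from 20 and 25 UMIs. It had ratios of 0.430 in the unnamed Ptgds cluster, 0.413 in oligodendrocyte-like nuclei, 0.363 in the leptomeningeal-like Slc26a7 cluster and 0.181 in precursor-like nuclei. Col18a1 had an HGF scaffold to untreated ratio of 2.36 (1.01 to 5.21) in the leptomeningeal-like Slc26a7 cluster and 0.455 in fibroblast-like nuclei.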

How the results depend on the processing

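With 1 library per group there was no replicate to leave out and no test. No paired analysis was possible because each group was 1 library. The collagen ratio of scaffold to untreated stayed below 1 under every alternative run, from 0.403 to 0.474 over all nuclei, 0.405 to 0.710 in endothelial-like nuclei and 0.388 to 0.766 in fibroblast-like nuclei. The HGF scaffold to scaffold ratio ran from 1.40 to 1.70, from 1.37 to 2.25 and from 0.779 to 2.49 in the same order, the 0.779 arising where the fibroblast-like name passed to another cluster. At a floor of 500 genes for each nucleus and with clusters named anew, no cluster was named fibroblast-like. Keeping the 2 doublet calls also changed the clusters. The fibroblast-like class then held 343, 176 and 75 nuclei, against 298, 140 and 67 as reported, so that alternative does not isolate those 2 nuclei. Alternatives leaving out nuclei by depth or Col2a1, subtracting the oligodendrocyte level, leaving out type I and III chains, naming clusters anew and averaging subclusters were chosen after seeing the data. The HGF scaffold library, the shallowest, limited comparisons of chains under 20 UMIs. Values that left the counting interval follow, and the cause was not tested. In all nuclei the scaffold to untreated collagen ratio, 0.456 as reported, became 0.403 with mixed nuclei removed, 0.441 thinned to 500 UMIs, 0.444 divided by the median ratio of all genes, 0.446 without nuclei above 10000 UMIs, 0.467 without nuclei with at least 5 Col2a1 UMIs, and 0.474 without type I and III chains. In all nuclei the HGF scaffold to scaffold collagen ratio, 1.69 as reported, became 1.40 with nuclei weighted equally, 1.42 thinned to 500 UMIs, and 1.56 without type I and III chains. In fibroblast-like nuclei the scaffold to untreated collagen ratio, 0.500 as reported, became 0.397 with doublet calls kept, 0.392 at a floor of 500 genes, 0.388 with mixed nuclei removed, 0.442 with nuclei weighted equally, 0.454 thinned to 500 UMIs, 0.483 at resolution 2 (clusters named anew or not), 0.461 by marker score per nucleus, 0.402 with each library clustered alone, 0.448 without nuclei above 10000 UMIs, 0.459 with the oligodendrocyte level subtracted, 0.480 without type I and III chains, 0.766 with doublet calls kept and clusters named anew, 0.528 with collagens kept in clustering and clusters named anew, 0.408 with each library clustered alone and clusters named anew, and 0.729 as the mean of the 2 subclusters. In fibroblast-like nuclei the HGF scaffold to scaffold collagen ratio, 1.87 as reported, became 2.01 with doublet calls kept and with collagens kept in clustering and clusters named anew, 2.22 at a floor of 500 genes, 2.12 with mixed nuclei removed, 1.75 thinned to 500 UMIs, 2.03 with collagens kept in clustering, 2.49 with each library clustered alone, 2.0 with the oligodendrocyte level subtracted, 1.98 without type I and III chains, 0.779 with doublet calls kept and clusters named anew, 1.14 with each library clustered alone and clusters named anew, and 1.44 as the mean of the 2 subclusters. In endothelial-like nuclei the scaffold to untreated collagen ratio, 0.555 as reported, became 0.710 with mixed nuclei removed, 0.629 with nuclei weighted equally, 0.603 without nuclei above 10000 UMIs, 0.405 with the oligodendrocyte level subtracted, and 0.610 without type I and III chains. In endothelial-like nuclei the HGF scaffold to scaffold collagen ratio, 1.75 as reported, became 1.56 with doublet calls kept (clusters named anew or not), 1.92 thinned to 500 UMIs and by marker score per nucleus, 2.25 with the oligodendrocyte level subtracted, and 1.37 without type I and III chains.

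The 2 chains higher in all nuclei (scaffold to untreated) became 0 with a minimum of 50 UMIs, with mixed nuclei removed and thinned to 500 UMIs, and 1 at a floor of 500 genes and without nuclei above 10000 UMIs. The 5 chains higher in all nuclei (HGF scaffold to scaffold) became 2 thinned to 500 UMIs. The 1 chain lower in all nuclei (HGF scaffold to scaffold) became 2 with no minimum and with mixed nuclei removed, and 0 thinned to 500 UMIs and without nuclei above 10000 UMIs. The 0 chains higher in fibroblast-like nuclei (scaffold to untreated) became 1 at a floor of 500 genes and without nuclei above 10000 UMIs, and 2 with each library clustered alone (clusters named anew or not). The 4 chains higher in fibroblast-like nuclei (HGF scaffold to scaffold) became 7 with doublet calls kept and at a floor of 500 genes, 8 with mixed nuclei removed, 10 with each library clustered alone, 0 with doublet calls kept and clusters named anew, and 1 with each library clustered alone and clusters named anew. The 0 chains lower in fibroblast-like nuclei (HGF scaffold to scaffold) became 4 with no minimum and with each library clustered alone, 1 with doublet calls kept and at a floor of 500 genes, and 7 with each library clustered alone and clusters named anew. The 1 chain higher in endothelial-like nuclei (scaffold to untreated) became 0 under every other alternative in which it moved, and 2 with mixed nuclei removed. The 8 chains lower in endothelial-like nuclei (scaffold to untreated) became 4 with mixed nuclei removed, and 5 thinned to 500 UMIs. The 8 chains higher in endothelial-like nuclei (HGF scaffold to scaffold) became 5 with a minimum of 50 UMIs, with mixed nuclei removed, thinned to 500 UMIs and by marker score per nucleus, 2 with doublet calls kept (clusters named anew or not), and 4 with each library clustered alone (clusters named anew or not). The 3 chains lower in endothelial-like nuclei (HGF scaffold to scaffold) became 0 with a minimum of 50 UMIs, with mixed nuclei removed and thinned to 500 UMIs.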
